A study of Mus musculus with 6 samples.

Results

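The genes described here encode pre-mRNA splicing factors, among them the CLK kinases, the SR proteins and the heterogeneous nuclear ribonucleoproteins (hnRNPs). The others are the SF3A and SF3B subunits and proteins of the small nuclear ribonucleoproteins (snRNPs). The role labelled core snRNP below takes in every Snrp symbol. It holds Sm proteins together with proteins of single snRNPs, such as the U1 protein of Snrpa and the U2 protein of Snrpa1. Members were chosen by name and position, as protein-coding autosomal mouse genes called Clk1 to Clk4 or with a symbol beginning with Srsf, Hnrnp, Sf3a, Sf3b or Snrp, together with the consensus ATAC-seq peaks whose centre lay nearest to an end of such a gene and within 50 kb of it. Of 56 such genes, 51 had a peak, and Clk2, Hnrnpa1l2-ps2, Sf3a2, Snrpd3 and Snrpn had none under this rule. They held 174 of the 90823 consensus peaks: 48 gene-end peaks, with the centre within 1 kb of either end of the gene, at 44 genes, and 126 other peaks. The group was taken up with earlier results of these data known, among them the gain of the Clk3 peak with prostaglandin E2. Values for that peak are therefore given as a description without a p-value, and its calls are not a test of the group. The Clk3 peak is counted by its adjusted p among the start peaks and the peaks beyond 1 kb below. The counts of calls per comparison are also given without it.

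ATAC-seq counts the cuts of a transposase and so measures how open the chromatin is at each peak. The series holds 6 libraries of mouse intestinal organoids, grown from crypts in Matrigel with EGF, Noggin, R-spondin and the GSK3 inhibitor CHIR-99021, with libraries made from sorted epithelial cells. There were 2 libraries each from organoids treated for 3 days with 25 µM arachidonic acid (AA), with 50 nM prostaglandin E2 (PGE2) or with vehicle, and all groups shared the same medium. The design text names a dimethyl PGE2 analogue where the treatment protocol names PGE2, so PGE2 is used here as the protocol has it. Nothing in the labels says that replicate libraries came from separate cultures or animals. The p-values therefore measure the spread between these libraries, which may be technical. That spread is pooled over the 3 groups and in large part shared across peaks.

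Splicing removes introns from a transcript on a ribonucleoprotein machine, the spliceosome, assembled from snRNPs around a core ring of Sm proteins. SF3A and SF3B are parts of the U2 snRNP, which recognises the branch site. SR proteins bind exonic enhancers and mostly promote exon inclusion, hnRNPs bind nascent transcripts and often act against inclusion, and CLK kinases phosphorylate the serine and arginine rich domains of SR proteins. These genes are expressed in most cell types.

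The promoter windows below, from 250 bp before to 50 bp after a RefSeq start (GRCm38.p6), are shown because the peaks over these starts include the clearest gains and the flattest members; 49 of the 56 members had a window in that table. Capitals mark matches, on either strand, to any of 8 motifs: the GC box GGGCGG, the CCAAT box, the ETS motif CCGGAAG, the cyclic AMP response element TGACGTCA, the E-box CACGTG, the NRF1 motif, the TATA box TATAAA and the AP-1 motif TGANTCA. The first 3 belong to the gene-end gains with PGE2 that had the lowest p-values, the next to Clk3, chosen after its values were seen, and the last 3 to gene-end peaks nearest to no change with PGE2. The windows, each written 5′ to 3′ on the strand of its gene, lie at chr10:63023800-63024099 (Hnrnph3, minus strand), chr11:116853045-116853344 (Srsf2, minus), chr13:58128507-58128806 (Hnrnpa0, minus), chr9:57765065-57765364 (Clk3, minus), chr19:5295408-5295707 (Sf3b2, minus), chr7:27196222-27196521 (Snrpa, minus) and chr15:103240147-103240446 (Hnrnpa1, plus).
Hnrnph3: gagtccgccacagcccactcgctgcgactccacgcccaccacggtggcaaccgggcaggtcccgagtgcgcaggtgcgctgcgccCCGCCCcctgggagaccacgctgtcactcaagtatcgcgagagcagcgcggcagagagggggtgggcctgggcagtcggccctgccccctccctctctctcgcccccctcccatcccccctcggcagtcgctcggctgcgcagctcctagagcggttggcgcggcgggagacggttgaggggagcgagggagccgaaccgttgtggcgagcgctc
Srsf2: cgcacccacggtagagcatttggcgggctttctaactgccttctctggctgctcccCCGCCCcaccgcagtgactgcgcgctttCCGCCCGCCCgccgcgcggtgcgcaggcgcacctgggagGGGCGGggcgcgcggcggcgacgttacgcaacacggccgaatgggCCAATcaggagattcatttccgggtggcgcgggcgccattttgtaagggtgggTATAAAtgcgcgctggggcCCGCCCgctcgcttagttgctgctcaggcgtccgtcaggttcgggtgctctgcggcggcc
Hnrnpa0: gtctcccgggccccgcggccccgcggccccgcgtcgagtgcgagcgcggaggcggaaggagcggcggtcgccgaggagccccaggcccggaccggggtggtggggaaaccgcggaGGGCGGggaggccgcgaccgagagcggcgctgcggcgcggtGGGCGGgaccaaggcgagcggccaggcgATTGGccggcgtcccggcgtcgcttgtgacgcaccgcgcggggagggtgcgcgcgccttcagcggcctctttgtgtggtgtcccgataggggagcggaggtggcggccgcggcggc
Clk3: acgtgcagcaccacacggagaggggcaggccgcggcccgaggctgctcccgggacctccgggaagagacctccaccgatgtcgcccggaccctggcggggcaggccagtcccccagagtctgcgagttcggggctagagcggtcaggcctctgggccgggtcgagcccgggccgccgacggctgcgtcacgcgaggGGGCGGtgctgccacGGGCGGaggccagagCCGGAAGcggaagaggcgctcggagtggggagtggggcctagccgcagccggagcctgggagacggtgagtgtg
Sf3b2: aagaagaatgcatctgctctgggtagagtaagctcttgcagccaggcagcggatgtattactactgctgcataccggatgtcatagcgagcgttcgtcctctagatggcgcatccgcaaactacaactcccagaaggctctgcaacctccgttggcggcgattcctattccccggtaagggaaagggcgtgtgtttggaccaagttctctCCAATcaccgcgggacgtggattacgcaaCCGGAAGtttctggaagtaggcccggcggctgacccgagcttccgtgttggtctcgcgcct
Snrpa: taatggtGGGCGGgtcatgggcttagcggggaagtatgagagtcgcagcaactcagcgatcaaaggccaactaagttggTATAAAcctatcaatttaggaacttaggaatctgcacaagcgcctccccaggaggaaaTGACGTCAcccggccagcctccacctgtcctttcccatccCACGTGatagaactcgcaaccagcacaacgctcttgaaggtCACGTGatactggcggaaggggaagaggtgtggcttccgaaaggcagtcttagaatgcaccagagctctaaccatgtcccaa
Hnrnpa1: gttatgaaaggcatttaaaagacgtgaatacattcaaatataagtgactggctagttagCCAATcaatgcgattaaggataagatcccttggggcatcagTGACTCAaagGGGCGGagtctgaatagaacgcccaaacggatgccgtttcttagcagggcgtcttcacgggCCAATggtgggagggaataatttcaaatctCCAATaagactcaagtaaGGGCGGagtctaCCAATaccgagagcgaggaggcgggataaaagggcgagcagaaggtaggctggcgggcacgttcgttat

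The first 4 windows were richer in G and C, at 73.0% for Hnrnph3, 69.3% for Srsf2, 79.7% for Hnrnpa0 and 74.7% for Clk3. The last 3 held 56.3% for Sf3b2, 53.0% for Snrpa and 48.3% for Hnrnpa1. The Srsf2 window had 5 GC box matches, a CCAAT box and a TATA box, whereas the Hnrnpa1 window had 4 CCAAT boxes, 2 GC boxes and an AP-1 match. The Snrpa window held a cyclic AMP response element and 2 E-box matches, and the Clk3 and Sf3b2 windows each held an ETS match.

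Peak counts summed to between 12374232 and 14236985 per library. Member peaks took 0.276% and 0.281% of them in AA libraries, 0.296% and 0.304% in PGE2 libraries, and 0.274% and 0.274% in vehicle libraries. Gene-end peaks of all genes took 32.3% and 32.9% of counts in AA libraries, 34.3% and 35.8% in PGE2 libraries, and 31.9% and 31.4% in vehicle libraries. The PGE2 pair was also the least alike, with a chi-square per degree of freedom between its libraries of 1.55, against 1.12 for AA and 1.10 for vehicle. All 10 epithelial marker genes on the fixed list, Epcam and Vil1 among them, had peaks, and their summed level lay between 3111.5 and 3114.9 CPM in AA libraries, 2961.5 and 2971.3 in PGE2 libraries, and 3072.0 and 3110.9 in vehicle libraries. Of the stromal markers 5 of 7 had a peak, with none at a gene end, of the immune markers 5 of 6 had one, with 2 genes holding a gene-end peak, and of the endothelial markers 4 of 4 had one, with 1 gene holding a gene-end peak. The endothelial sum, over 29 peaks, was 226 and 223 CPM in AA libraries, 213 and 219 in PGE2 libraries and 215 and 221 in vehicle libraries. The stromal sum lay between 138 and 148 CPM over all libraries and the immune sum between 106 and 117, and the part of such cells in the changes was not tested. CPM here are peak counts scaled to a common library size after TMM normalisation, and a peak was called when the adjusted p of edgeR's quasi-likelihood test, over all 89347 tested peaks, was under 0.05.

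With PGE2 the chromatin at the starts of many SR protein and hnRNP genes was more open than with vehicle. Over the gene-end peaks of all roles called higher, the gains ran from 1.15-fold to 2.09-fold. Of these genes, Clk1, Hnrnpul2, Snrpb and Snrpd1 had no RefSeq window. Whether their 4 peaks hold the start of their gene could therefore not be told. Of the 48 gene-end peaks, all of which passed the filter on low counts, 21 were called higher with PGE2 and 0 lower, where 32.1% of all gene-end peaks were called higher and 5.33% lower. Their median log2 change was 0.25, against 0.14 over all 14457 gene-end peaks tested. In these bulk libraries a larger share of cells with an open site and a more open site per cell cannot be told apart. By role, 2 of 2 CLK, 6 of 13 SR, 8 of 15 hnRNP, 4 of 10 core snRNP and 1 of 8 SF3A and SF3B gene-end peaks were called higher, a difference between roles that was not tested. Lower calls were 0 at an unadjusted p under 0.05 as well, and 0 by DESeq2. DESeq2 called 15 higher, 13 of them among these 21. It lost Clk1, Clk4, Hnrnpul2, Snrpa1, Snrpd1, Snrpe, Srsf3 and Srsf6, and added Hnrnpd and Srsf4. When peaks at gene ends and elsewhere were each scaled on their own, which brought the median of all gene-end peaks to -0.04, the split among the members was 14 higher and 4 lower, so the direction of the flatter peaks depends on the scaling.

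Gene-end peaks include the ends where transcription stops, and some broad start peaks have their centre just beyond 1 kb: just inside lay a finish-side peak of Hnrnpdl (955.5 bp, PGE2 log2 change -0.26), and just outside a peak of Srsf1 (1007.5 bp, -0.33), a peak of Srsf12 (1013 bp, 0.53) and the Clk3 start peak (1027 bp, 1.10). Member peaks that hold the RefSeq start of their own gene, a class added after the values were seen, numbered 42 at 41 genes, 35 of them among the gene-end peaks and 7 among the other peaks. Of these start peaks 23 were called higher with PGE2 and 0 lower, where 39.6% of all 9464 start peaks were called higher and 4.92% lower, and their median log2 change was 0.30, against 0.18 for all start peaks. Without the Clk3 peak the count was 22 of 41, with a median of 0.30. The counts by role, Clk3 left out, were 1 of 1 for CLK, 8 of 11 for SR, 10 of 15 for hnRNP, 2 of 8 for core snRNP and 1 of 6 for SF3A and SF3B genes. Clk1, Hnrnpul2, Snrpb, Snrpd1, Sf3b4 and Sf3b5 had no RefSeq window and could not enter this class. The gene-end counts by role include them. Of the 6 gene-end peaks on the finish side of their genes 0 were called, by the unadjusted p as well, and DESeq2 called 0. In the PGE2 pair, library 2 lay above library 1 in all 23 of the start peaks called, with a median ratio of 1.13 and a highest ratio of 1.39. Over all genes this was so in 3230 of the 3748 start peaks called higher, with a median ratio of 1.14. Called or not, library 2 was above library 1 in 35 of the 42 member start peaks and in 6761 of all 9464. Without PGE2 library 2, 19 of the 23 remained called. DESeq2 called 16 of the 23, losing Clk4, Srsf1, Srsf3, Srsf6, Hnrnpl, Snrpa1 and Snrpe, and added Hnrnpd and Srsf4. It called 23.3% of all start peaks higher.

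**Figure D1:**
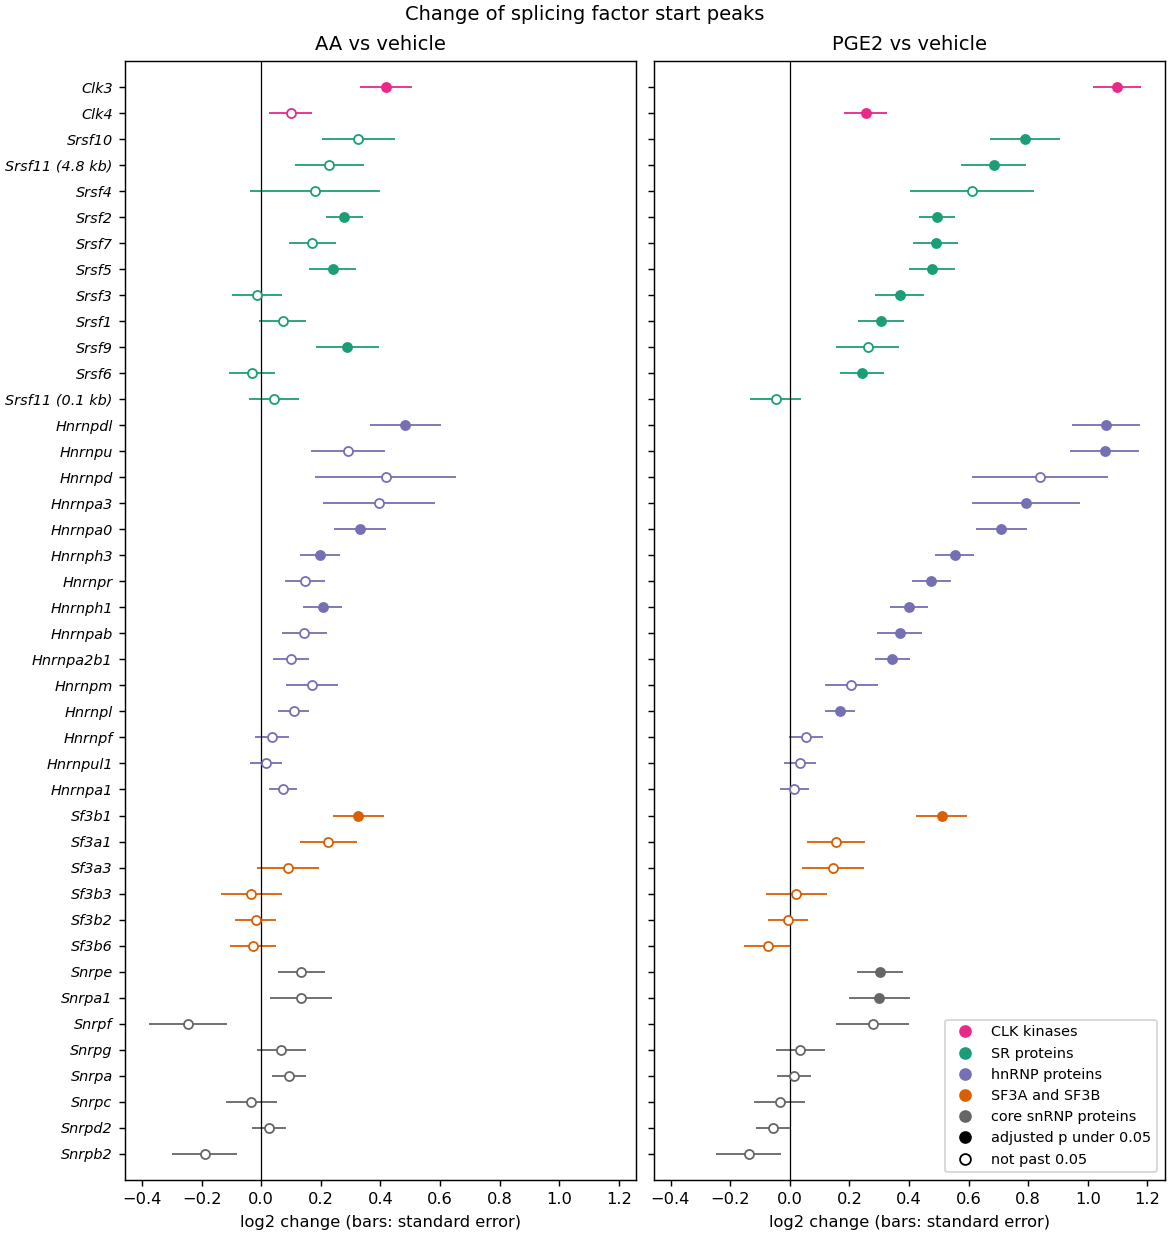
Log2 change (horizontal axis) of the 42 start peaks of splicing factor genes, 1 row per peak and coloured by role, for AA against vehicle (left) and PGE2 against vehicle (right). Points are edgeR estimates, bars their standard errors, and filled points have an adjusted p under 0.05. With PGE2 the SR and hnRNP rows reach 1.06, while most SF3 and core snRNP rows shown lie near 0. Clk1, Hnrnpul2, Snrpb, Snrpd1, Sf3b4 and Sf3b5 had no RefSeq window and so have no row. With PGE2 the gene-end peaks of Clk1, Hnrnpul2, Snrpb and Snrpd1 were called higher, and those of Sf3b4 and Sf3b5 were not.

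Among the CLK kinases, the Clk3 start peak at chr9:57764295-57766121, inside the gene, had the largest gain of all member start peaks. It held 47.0 and 50.5 CPM in PGE2 libraries, 28.0 and 33.1 in AA libraries, and 22.2 and 23.3 in vehicle libraries. The 3 groups did not overlap, with PGE2 highest and AA in between, and the log2 change was 1.10 (SE 0.08) with PGE2 and 0.42 (SE 0.09) with AA. Clk1, which has no window in the RefSeq table used, had a gene-end peak at chr1:58422693-58424367 with 24.3 and 24.8 CPM in PGE2 libraries and 18.4 and 17.9 in vehicle libraries (log2 change 0.44, SE 0.09, edgeR adjusted p = 0.000428). Clk4, at chr11:51262548-51263784, shares its start peak with the gene BC049762 and held 44.6 and 48.3 CPM with PGE2 and 40.7 and 37.1 with vehicle (0.25, SE 0.07, edgeR adjusted p = 0.00616). The 2 gains were smaller than that of Clk3, and the Clk4 call was lost without PGE2 library 2 and without vehicle library 2. DESeq2 called neither.

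The start of Clk2 was open too, in a peak whose centre lies nearest to the end of the predicted gene Gm45927, so that it is not a member. That peak was higher in both PGE2 libraries than in either vehicle library (log2 change 0.77, SE 0.10, edgeR adjusted p = 3.39e-07). Peaks over the starts of Sf3a2, Snrpd3, Hnrnpk, Hnrnpc and an upstream start of Hnrnpf were likewise assigned to neighbouring genes. Of these, the Sf3a2 start, shared with Plekhj1, held 45.6 and 53.9 CPM with PGE2 and 34.1 and 33.2 with vehicle (0.57, SE 0.07, edgeR adjusted p = 1.39e-07). The Hnrnpk start held 63.6 and 87.7 CPM with PGE2 and 47.1 and 48.4 with vehicle, and its PGE2 libraries were far apart; it was not called (0.66, SE 0.20, edgeR adjusted p = 0.108). The Hnrnpc start held 97.9 and 105 CPM with PGE2 and 104 and 111 with vehicle, with the groups overlapping (-0.09, SE 0.05, edgeR adjusted p = 0.242). The log2 change was 0.18 (SE 0.05, edgeR adjusted p = 0.01) at the Snrpd3 start and 0.77 (SE 0.11, edgeR adjusted p = 0.00112) at the upstream Hnrnpf start.

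Among the SR proteins, Srsf2 encodes SC35, a factor that binds exonic enhancers, and its start peak at chr11:116852070-116854165 also lies over the start of Mfsd11. It held 74.9 and 85.0 CPM in PGE2 libraries and 57.0 and 56.5 in vehicle libraries, so the groups did not overlap (log2 change 0.49, SE 0.06, edgeR adjusted p = 3.47e-08). Srsf10, known as a splicing repressor once dephosphorylated, held 34.9 and 45.1 CPM with PGE2 and 22.1 and 24.2 with vehicle, the largest gain in the class (0.79, SE 0.12, edgeR adjusted p = 0.000194). Srsf7 held 47.7 and 56.6 CPM with PGE2 and 36.8 and 37.5 with vehicle (0.49, SE 0.08, edgeR adjusted p = 8.21e-06). Its peak is shared with the start of Gemin6, and in both Srsf7 and Srsf10 the lower PGE2 library was above both vehicle libraries. Srsf5 held 44.0 and 50.3 CPM with PGE2 and 35.1 and 32.5 with vehicle (0.48, SE 0.08, edgeR adjusted p = 9.72e-06).

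Srsf3, an SR protein that also acts in mRNA export, rose by 0.37 (SE 0.08) on the log2 scale with PGE2, with 35.2 and 39.6 CPM against 28.5 and 29.4 with vehicle. Srsf6 held 39.9 and 45.6 CPM with PGE2 and 36.9 and 35.3 with vehicle (0.24, SE 0.07, edgeR adjusted p = 0.0126), a call that was lost without any 1 of PGE2 library 2, vehicle library 1 and vehicle library 2. Srsf1, the founding SR protein SF2/ASF, held 38.5 and 38.7 CPM with PGE2 and 30.1 and 32.3 with vehicle in a start peak centred 1133.5 bp from the gene's end (0.31, SE 0.08, edgeR adjusted p = 0.0022), a call lost without vehicle library 1. Srsf11 has 2 start peaks, which went different ways. The inner one, 4803 bp from the nearest end, held 21.8 and 28.1 CPM with PGE2 and 16.6 and 14.4 with vehicle (0.68, SE 0.11, edgeR adjusted p = 1.06e-05), and the outer one, shared with Lrrc40, held 25.6 and 25.8 CPM with PGE2 and 26.0 and 27.1 with vehicle (-0.05, SE 0.09). Srsf4 and Srsf9 were not called; Srsf4 held 17.8 and 27.5 CPM with PGE2 and 15.4 and 14.2 with vehicle (0.61, SE 0.21, edgeR adjusted p = 0.0812), with its PGE2 libraries far apart.

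Among the hnRNPs, Hnrnpdl and Hnrnpu gained most. Hnrnpdl, a relative of the AU-rich element binding protein encoded by Hnrnpd, shares its start peak at chr5:100038424-100040614 with Enoph1 and held 66.2 and 83.1 CPM in PGE2 libraries, against 36.2 and 35.3 in vehicle libraries (log2 change 1.06, SE 0.11, edgeR adjusted p = 0.00017). Hnrnpu, a nuclear matrix protein that also binds chromatin and RNA, held 24.6 and 33.2 CPM with PGE2 and 14.2 and 13.5 with vehicle in its start peak at chr1:178336907-178338638 (1.06, SE 0.11, edgeR adjusted p = 8.19e-08). In both, each PGE2 library was well above each vehicle library, and PGE2 library 2 was above library 1. Hnrnpu also had the only locus with more than 1 peak called higher with PGE2: an adjoining peak inside the gene held 15.0 and 14.9 CPM with PGE2 and 10.6 and 9.84 with vehicle (0.54, SE 0.12), and a weak peak 5468.5 bp away held 2.44 and 1.93 CPM with PGE2 and 0.689 and 1.07 with vehicle (1.31, SE 0.35, edgeR adjusted p = 0.00444).

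Hnrnph3, of the family that binds runs of G, held 61.7 and 62.4 CPM with PGE2 and 40.8 and 43.7 with vehicle in a start peak shared with Pbld2 (log2 change 0.55, SE 0.07, edgeR adjusted p = 1.31e-08), and its PGE2 libraries lay close together. Its relative Hnrnph1 held 59.9 and 61.0 CPM with PGE2 and 45.0 and 46.5 with vehicle (0.40, SE 0.06, edgeR adjusted p = 5.23e-06). Hnrnpa0 held 41.4 and 50.5 CPM with PGE2 and 29.6 and 26.6 with vehicle (0.71, SE 0.08, edgeR adjusted p = 6.77e-08). These gains held in each pair of PGE2 and vehicle libraries. Hnrnpr held 61.3 and 68.3 CPM with PGE2 and 48.5 and 44.7 with vehicle (0.48, SE 0.07, edgeR adjusted p = 3.15e-07), and Hnrnpa2b1, which shares its start peak with Cbx3, rose by 0.34 (SE 0.06) on the log2 scale. Hnrnpa3 held 53.4 and 74.1 CPM with PGE2 and 38.1 and 35.5 with vehicle; it was called with an adjusted p of 0.046 by edgeR, and this call was lost without AA library 1, AA library 2, vehicle library 1 or vehicle library 2, and in the fit of the PGE2 and vehicle libraries alone. Hnrnpd, which encodes AUF1, held 28.2 and 42.4 CPM with PGE2 and 19.7 and 19.8 with vehicle and was not called (0.84, SE 0.23, edgeR adjusted p = 0.0655).

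Some hnRNP starts were flat. Hnrnpa1, which promotes exon skipping and shares its start peak with Cbx5, had the highest vehicle level per kb of the member gene-end peaks, with 121 and 119 CPM in PGE2 libraries and 119 and 119 in vehicle libraries (log2 change 0.02, SE 0.05). Hnrnpul1 held 81.6 and 88.6 CPM with PGE2 and 83.6 and 82.5 with vehicle (0.03, SE 0.05), and its groups overlapped. Hnrnpul2, with no RefSeq window in the table used, rose by 0.20 (SE 0.05) on the log2 scale, with 108 and 116 CPM against 98.4 and 96.5 with vehicle, a call lost without vehicle library 2.

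Of the SF3A and SF3B subunits, which hold the U2 snRNP at the branch site, 1 of the 6 with a start peak, Sf3b1, was called there, and differences among the subunits were not tested. Sf3b1, the largest SF3B subunit and the one that contacts the branch site helix, held 31.3 and 33.5 CPM with PGE2 and 23.4 and 22.0 with vehicle (log2 change 0.51, SE 0.09, edgeR adjusted p = 1.01e-05). Sf3b2 held 45.2 and 45.2 CPM with PGE2 and 45.0 and 45.8 with vehicle (-0.01, SE 0.07), and Sf3b6 held 31.5 and 31.0 CPM with PGE2 and 31.9 and 33.9 with vehicle (-0.07, SE 0.08). The gene-end changes of the 8 subunits with such a peak ran from -0.07 to 0.51, with a median of 0.08.

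The genes of the core snRNP label, which include those of U1 and U2 proteins, had gene-end log2 changes from -0.14 to 0.66 and a median of 0.16. Snrpb, a protein of the Sm ring, held 19.2 and 19.0 CPM with PGE2 and 11.9 and 12.3 with vehicle (log2 change 0.66, SE 0.11, edgeR adjusted p = 7.07e-06). Snrpd1, another Sm protein, held 12.1 and 12.9 CPM with PGE2 and 8.50 and 8.47 with vehicle (0.56, SE 0.13, edgeR adjusted p = 0.000721). These 2 peaks were the least open of the class per kb with vehicle, at 9.06 and 8.14 CPM per kb, and their groups did not overlap. Snrpe, also of the Sm ring, rose by 0.30 (SE 0.08) on the log2 scale and Snrpa1, which encodes the U2 protein A′, by 0.30 (SE 0.10), calls lost without PGE2 library 2 and, for Snrpa1, also without vehicle library 1. The starts of Snrpd2, with 67.7 and 70.6 CPM with PGE2 and 70.1 and 73.7 with vehicle, and of the U1 protein gene Snrpa, with 73.5 and 70.6 CPM with PGE2 and 70.6 and 71.9 with vehicle, were not called.

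**Figure D2:**
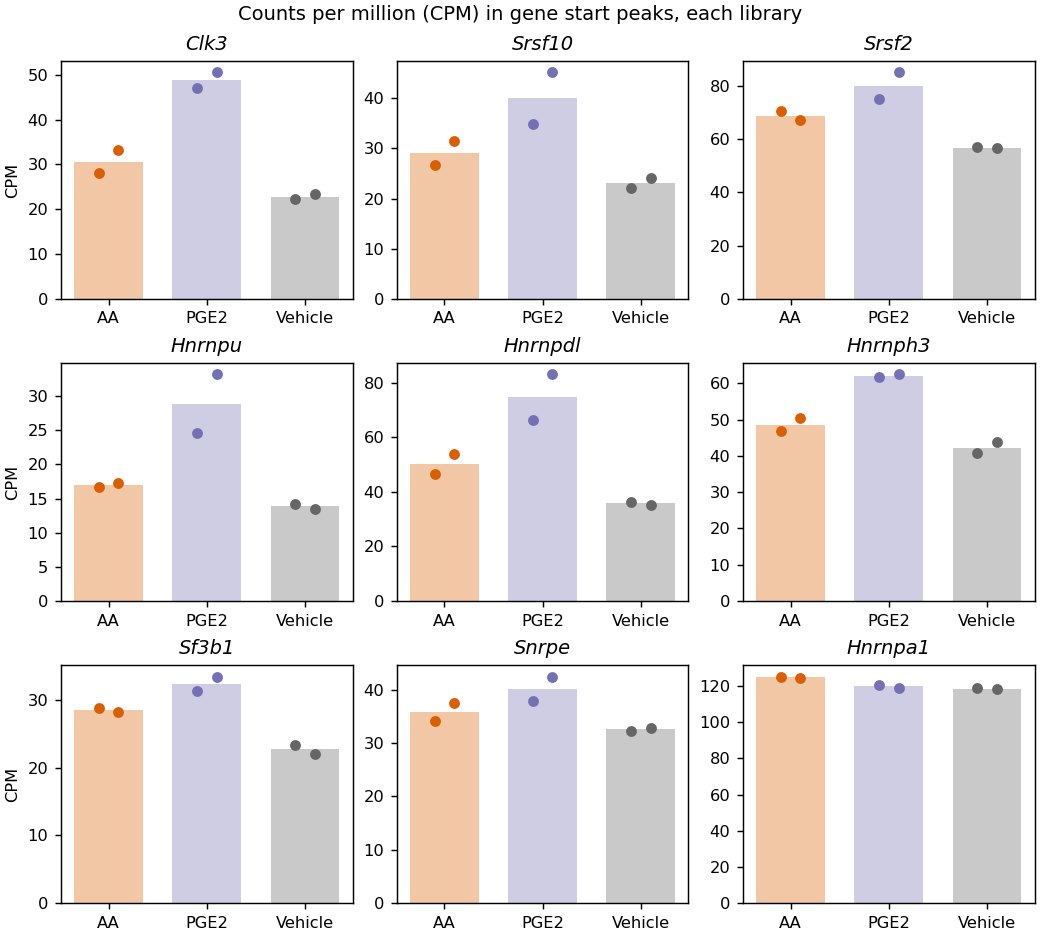
CPM (vertical axis, from 0) in the start peaks of 9 splicing factor genes, with a point for each library and a bar for the mean of the 2 libraries of each group. In all panels except Hnrnpa1 both PGE2 points lie above both vehicle points, and the AA bar stands between the other 2; in Hnrnpa1 the PGE2 and vehicle points lie between 119 and 121 CPM.

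Fewer splicing factor starts changed with AA than with PGE2. Of the 48 gene-end peaks 8 were called higher with AA than with vehicle and 0 lower, where 14.6% of all gene-end peaks were called higher and 7.62% lower; by DESeq2 and at an unadjusted p under 0.05, 0 were lower. The members' share called higher, 16.7%, was near that of all genes. Their median log2 change was 0.10, against 0.05 for all gene-end peaks. By DESeq2, 1 of the 48 was higher with AA, where 3.04% of all gene-end peaks were. Of the 42 start peaks 9 were called higher and 0 lower, or 8 of 41 higher without the Clk3 peak, where 16.8% of all start peaks were called higher and 6.64% lower. These counts were unsteady: leaving out 1 library in turn gave between 2 and 14 gene-end peaks called higher, with 2 without vehicle library 2, 3 without AA library 2, 4 without vehicle library 1 and 14 without either PGE2 library, and DESeq2 called 1.

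Hnrnpdl had the largest AA gain among the gene-end peaks, with 46.5 and 53.8 CPM in AA libraries and 36.2 and 35.3 in vehicle libraries (log2 change 0.48, SE 0.12, edgeR adjusted p = 0.0145), a call lost without either vehicle library. Srsf2 held 70.5 and 67.0 CPM with AA and 57.0 and 56.5 with vehicle (0.28, SE 0.06, edgeR adjusted p = 0.00046). It kept this call without any 1 of the 6 libraries, but DESeq2 did not call it. Of the 8 gene-end peaks called higher with AA, DESeq2 kept only Hnrnpdl. Sf3b1 held 28.8 and 28.2 CPM with AA and 23.4 and 22.0 with vehicle (0.33, SE 0.09, edgeR adjusted p = 0.003). Hnrnpa0 held 34.4 and 36.4 CPM with AA and 29.6 and 26.6 with vehicle (0.33, SE 0.09, edgeR adjusted p = 0.00327). The Sf3b1 and Hnrnpa0 calls were lost without vehicle library 2, and that of Hnrnpa0 also without AA library 2. Snrpb held 14.8 and 16.0 CPM with AA and 11.9 and 12.3 with vehicle (0.34, SE 0.11, edgeR adjusted p = 0.0158), lost without AA library 2 or either vehicle library. The others called were Srsf5 (0.24), Srsf9 (0.29) and Hnrnph3 (0.20) among the gene-end peaks, with Hnrnph1 (0.21) and Clk3 among the start peaks beyond 1 kb, each figure being a log2 change with AA; each of these 4 named with a value lost its call without AA library 2 and without at least 1 of the vehicle libraries. Srsf9, with 16.5 and 18.7 CPM with AA, 17.5 and 17.0 with PGE2 and 14.5 and 14.3 with vehicle, was called with AA and missed the threshold with PGE2 (edgeR adjusted p = 0.0337 and 0.0665), at log2 changes of 0.29 and 0.26, a difference of 0.03 (SE 0.10). The AA and PGE2 comparisons share the vehicle libraries, so like calls in both are not independent.

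Many splicing factor starts were less open with AA than with PGE2. Of the 48 gene-end peaks 0 were called higher with AA than with PGE2 and 16 lower, where 1.52% of all gene-end peaks were called higher and 16.7% lower; by DESeq2 and at an unadjusted p under 0.05, 0 were higher. The median log2 difference of AA minus PGE2 was -0.17, against -0.12 over all gene-end peaks. Of the 42 start peaks 18 were called lower and 0 higher, or 17 of 41 lower without the Clk3 peak, where 20.4% of all start peaks were called lower and 1.19% higher. By role, 8 of 11 SR, 8 of 15 hnRNP, 1 of 8 core snRNP and 0 of 6 SF3A and SF3B start peaks were lower with AA, and the SF3 count at an unadjusted p under 0.05 was 1. With peaks at gene ends and elsewhere scaled separately, the gene-end split was 3 higher and 2 lower, where 4.44% of all gene-end peaks were higher. DESeq2 called 1 lower.

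Hnrnpu held 16.7 and 17.2 CPM in AA libraries and 24.6 and 33.2 in PGE2 libraries, the largest such difference among the start peaks (log2 difference -0.77, SE 0.11, edgeR adjusted p = 5.83e-05). Srsf3 held 30.4 and 26.8 CPM with AA and 35.2 and 39.6 with PGE2 (-0.38, SE 0.08, edgeR adjusted p = 0.00152, lost without AA library 2), with its AA libraries around the vehicle values of 28.5 and 29.4. Hnrnph3 held 46.7 and 50.4 CPM with AA and 61.7 and 62.4 with PGE2 (-0.36, SE 0.06, edgeR adjusted p = 0.000225). Snrpf, a Sm ring protein, held 9.57 and 9.63 CPM with AA and 12.1 and 15.6 with PGE2 (-0.53, SE 0.13, edgeR adjusted p = 0.00456), with the vehicle libraries between them at 11.7 and 11.1. Snrpf lost its call without AA library 1 and without PGE2 library 2. The count of gene-end peaks lower with AA was 3 without AA library 1 and 4 without PGE2 library 2.

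Away from gene ends, splicing factor peaks were called in both directions with each treatment. Of the 126 other peaks 122 passed the filter on low counts. With PGE2, 8 of them were called higher and 10 lower, where 10.8% of all such peaks were called higher and 10.2% lower, and 6 of the 8 were start peaks, Clk3 among them. With AA, 10 were called higher and 19 lower, where 16.6% of all such peaks were called higher and 13.5% lower. Without the Clk3 peak the higher calls were 7 with PGE2 and 9 with AA, of 121 in each. Leaving out the 7 start peaks, 2 of 115 were higher and 10 lower with PGE2, or 1.74% and 8.70%, where 10.1% of all other peaks without their gene's start were called higher and 10.3% lower. With AA, 8 of the 115 were higher and 19 lower, or 6.96% and 16.5%, where 16.5% of all such peaks were called higher and 13.6% lower. Between AA and PGE2, 5 of the 122 were higher and 6 lower (5 without the Clk3 peak), where 5.49% of all such peaks were called higher and 2.69% lower. The AA count of lower peaks was 3 without AA library 1, 5 without vehicle library 1 and 7 without vehicle library 2.

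**Figure D3:**
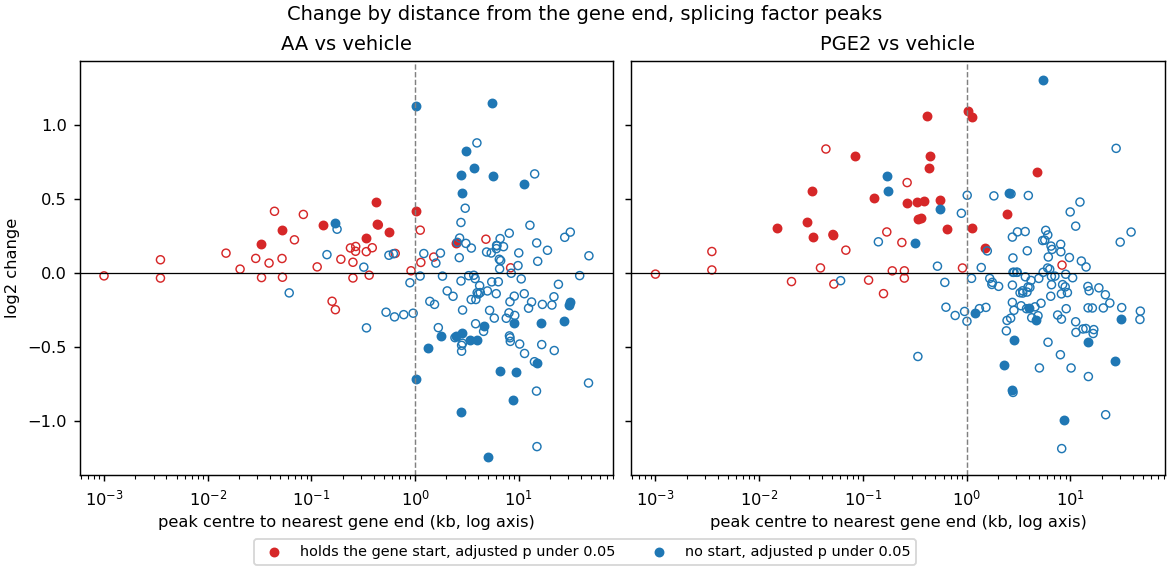
Log2 change (vertical axis) against the distance from the peak centre to the nearest gene end (kb, log axis) for the 170 tested splicing factor peaks, AA against vehicle on the left and PGE2 against vehicle on the right. Red points hold the start of their gene, blue points do not, and filled points have an adjusted p under 0.05; the dashed line marks 1 kb, and with PGE2 the filled points left of it lie above 0.

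**Figure D4:**
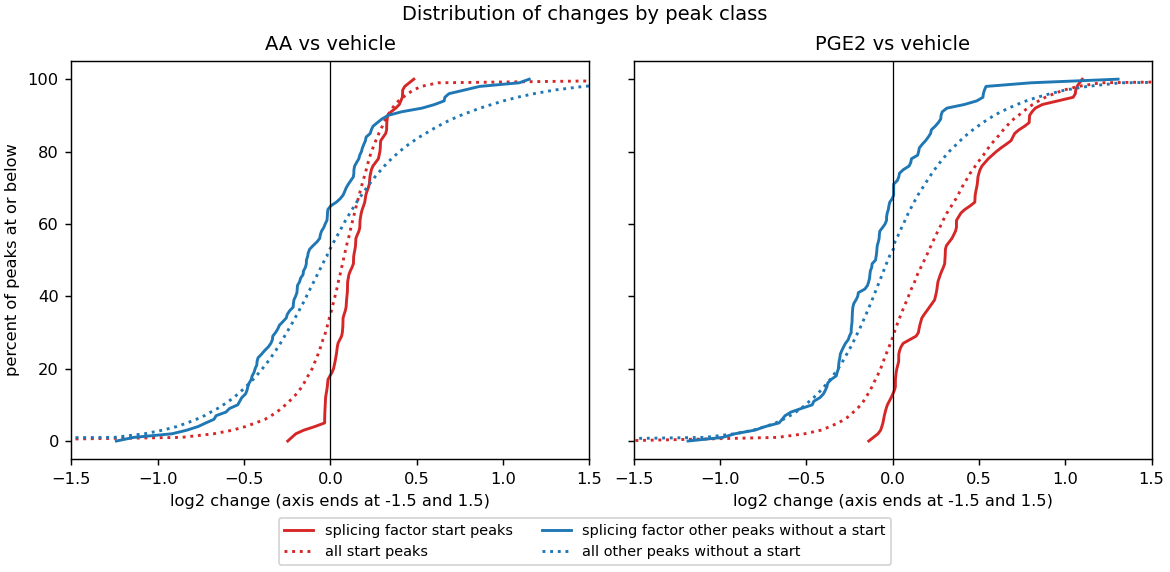
Cumulative distribution of log2 changes (horizontal axis) with AA (left) and PGE2 (right) against vehicle, as the percent of peaks at or below each value. Solid lines are splicing factor peaks and dotted lines all peaks of the same class; with PGE2 the solid red line of start peaks, median 0.30, lies right of the dotted one, median 0.18.

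Hnrnpab, an hnRNP gene, had both kinds of change at 1 locus. Its start peak at chr11:51605738-51607349 held 46.7 and 56.4 CPM with PGE2 and 41.2 and 38.6 with vehicle (log2 change 0.37, SE 0.07, edgeR adjusted p = 0.000264). A peak outside the gene at chr11:51609387-51609884, 2754.5 bp from its end, held 5.84 and 5.30 CPM in AA libraries, 6.56 and 5.86 in PGE2 libraries and 11.1 and 10.4 in vehicle libraries. Both treatments lay at about the same level there, below both vehicle libraries (log2 change -0.94, SE 0.14, edgeR adjusted p = 1.23e-06 with AA, and -0.79, SE 0.14, edgeR adjusted p = 2.85e-05 with PGE2). Srsf6 had its start peak higher and a peak 30969 bp away lower with PGE2, with the distant peak at 44.3 and 46.2 CPM with PGE2 and 55.5 and 56.4 with vehicle (-0.31, SE 0.06, edgeR adjusted p = 0.00033). At Srsf3, a peak 14820.5 bp away held 5.00 and 6.44 CPM with AA, 5.80 and 6.71 with PGE2 and 8.88 and 8.39 with vehicle, and was called lower with AA (-0.61, SE 0.15; lost without AA library 1) and with PGE2 (-0.47, SE 0.15; lost without PGE2 library 1 or either vehicle library).

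Some distal peaks rose with AA. Srsf12, an SR gene, had a peak outside the gene at chr4:33207699-33208257 with 4.64 and 4.57 CPM in AA libraries, 2.90 and 3.16 in PGE2 libraries and 1.91 and 2.29 in vehicle libraries (log2 change 1.13, SE 0.22, edgeR adjusted p = 9.85e-05 with AA). The AA libraries were above all others there, while a peak inside Srsf12, 8734 bp from its end, fell with AA, to 1.48 and 1.47 CPM with AA against 2.91 and 2.44 with vehicle (-0.86, SE 0.30, edgeR adjusted p = 0.024), a call lost without either AA library or vehicle library 1. Hnrnpa3 had an internal peak, 3092.5 bp from its end, with 12.1 and 9.14 CPM with AA, 7.17 and 7.48 with PGE2 and 5.59 and 6.48 with vehicle (0.83, SE 0.15, edgeR adjusted p = 2.19e-05 with AA), and another AA gain of 0.66 (SE 0.16) 5668.5 bp away. Hnrnpll, whose protein regulates CD45 splicing in lymphocytes, gained at a peak 2762 bp from its end, with 9.78 and 10.4 CPM with AA and 6.74 and 6.03 with vehicle (0.66, SE 0.14, edgeR adjusted p = 0.000254). A peak 27043 bp from Hnrnpll fell with PGE2, to 10.1 and 9.03 CPM against 15.5 and 13.5 with vehicle (-0.59, SE 0.12, edgeR adjusted p = 0.000203). Srsf4 gained with AA at a peak 3681.5 bp from its end, with 6.83 and 5.06 CPM with AA, 4.27 and 2.93 with PGE2 and 3.45 and 3.89 with vehicle (0.71, SE 0.19, edgeR adjusted p = 0.00422 with AA), a call lost without AA library 1 or vehicle library 1. Nearest gene end is a label of position, and a peak at such a distance may belong to another gene.

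The start peaks of splicing factor genes had a median length of 1598 bp, against 1124.5 bp for all start peaks, and a median vehicle level of 23.4 CPM per kb, against 18.4. With all start peaks cut into 3 equal classes by length, 26 members fell in the widest, and of these 19 were called higher with PGE2, or 73.1%, against 54.2% of all 3155 wide start peaks (18 of 25 without Clk3). In the middle class it was 2 of 11, or 18.2%, against 41.2% of all, and in the narrow class 2 of 5 against 23.5% of all. Across the 42 start peaks the PGE2 log2 change had a Pearson correlation of 0.34 with length and of -0.51 with vehicle CPM per kb, against 0.20 and -0.26 across all 9464 start peaks, as descriptions over peaks that share their libraries. Per kb of peak, the most open member gene ends with vehicle were Hnrnpa1, at 66.1 CPM per kb, Hnrnpul2, at 64.5, and Snrpa, at 63.5, with PGE2 log2 changes of 0.02, 0.20 and 0.02.

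Base composition moved with the changes of both treatments, which share the vehicle libraries. The G and C content of the 300 bp start window had a Pearson correlation of 0.65 with the PGE2 log2 change across the 42 start peaks, and of 0.51 across all 9464; without Clk3 the members' value was 0.63. With the AA log2 change the correlations were 0.55 across the 42 and 0.30 across all. G and C content also had a correlation of 0.53 with the log2 ratio of PGE2 library 2 over library 1, against 0.29 for the AA pair and -0.15 for the vehicle pair, so windows rich in G and C were higher in PGE2 library 2 than in library 1. In the class of start windows with most G and C, of 3 equal ones, 11 of 15 members, or 73.3%, were called higher with PGE2, against 65.3% of all. In the middle class it was 9 of 16, or 56.3%, against 34.9%, and in the lowest 3 of 11, or 27.3%, against 18.9%. With AA, from the class with most G and C to that with least, 6 of 15 members were called higher, or 40.0%, against 25.0% of all, 1 of 16, or 6.25%, against 16.1%, and 2 of 11, or 18.2%, against 9.43%. Clk3 is 1 of the members in the class with most G and C in both comparisons, and the part that composition or peak width had in the changes was not tested.

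**Figure D5:**
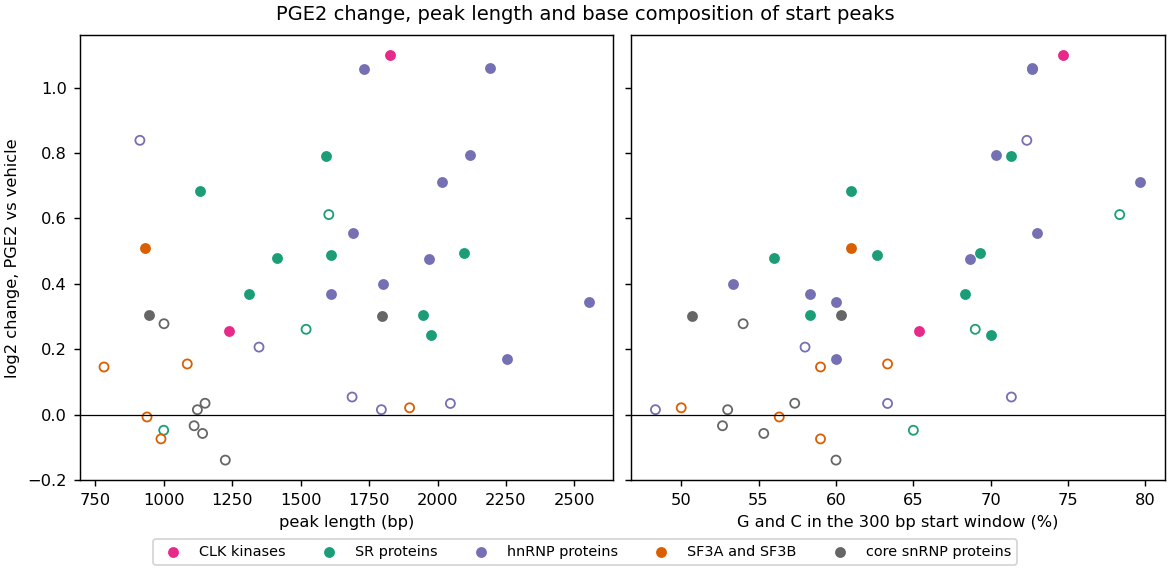
PGE2 against vehicle log2 change (vertical axis) of the 42 splicing factor start peaks against peak length in bp (left) and the percent of G and C in the 300 bp start window (right), coloured by role, with filled points for an adjusted p under 0.05. Clk3, at 74.7% and a log2 change of 1.10, lies at the upper right, and Hnrnpf, at 71.3%, has a log2 change of 0.05.

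In the same windows the ETS motif, of a transcription factor family common at housekeeping promoters, was found in 17 of 42 member windows, or 40.5%, against 17.6% of the windows of all start peaks. It was in 5 of the 23 windows whose peak was called higher with PGE2 and in 12 of the other 19. GC boxes were in 32 of 42 windows, or 76.2%, against 67.3% of all start peaks, with 20 of the 23 and 12 of the 19. CCAAT boxes were in 17 windows, or 40.5%, against 39.1%. The cyclic AMP response element, the motif of the CREB factors that act downstream of PGE2 receptors, was in 3 windows, or 7.14%, against 3.35% of all start peaks, and 1 of these 3, Clk4, was among those called higher with PGE2. E-box, NRF1, TATA box and AP-1 letters were in 4, 1, 6 and 2 of the windows. In that order these were 9.52%, 2.38%, 14.3% and 4.76%, against 10.4%, 2.06%, 7.24% and 5.09% of all start peaks. A match says only that the letters are there.

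Other splicing genes, on a list of 110 spliceosome and splicing regulator genes chosen by function, had 102 gene-end peaks. Of these 43, or 42.2%, were called higher and 2, or 1.96%, lower with PGE2, where 32.1% of all gene-end peaks were higher and 5.33% lower, and their median log2 change was 0.22, against 0.14 for all. With AA 14, or 13.7%, were higher and 2 lower, where 14.6% of all were higher and 7.62% lower. Between AA and PGE2, 20, or 19.6%, were lower with AA and 0 higher, with 1 higher at an unadjusted p under 0.05, where 16.7% of all were lower and 1.52% higher. The AA share and the share lower in AA than in PGE2 were thus near those of all gene-end peaks. U2af1, the small subunit of the factor that reads the 3′ splice site, held 28.2 and 32.6 CPM with PGE2 and 18.1 and 17.9 with vehicle (0.76, SE 0.09, edgeR adjusted p = 2.82e-08). Sart3, a snRNP recycling factor, held 34.6 and 39.2 CPM with PGE2 and 23.4 and 20.7 with vehicle (0.75, SE 0.09, edgeR adjusted p = 9.29e-09). Tra2a, a relative of the SR proteins, held 26.9 and 29.0 CPM with PGE2 and 17.1 and 15.3 with vehicle (0.79, SE 0.10, edgeR adjusted p = 3.15e-08). In the other direction, a gene-end peak of Tia1, which binds U-rich sequence near 5′ splice sites, held 7.04 and 6.61 CPM with AA, 10.2 and 8.18 with PGE2 and 14.0 and 12.7 with vehicle (-0.96, SE 0.13, edgeR adjusted p = 2.22e-07 with AA). Its groups did not overlap, with AA lowest.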

How the data were processed

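Sorted epithelial cells of mouse intestinal organoids were profiled by Omni-ATAC-seq. Trim Galore, BWA, Picard, SAMtools, MACS2 and featureCounts, with build mm10, are named per the submitters' processing notes. The deposited counts per consensus peak are raw read counts from featureCounts 1.6.3, per the file headers, counting paired reads without strand at their 5′ ends and allowing overlaps; peak lengths come from the same deposited table. Peaks were assigned to the nearest end of 21900 protein-coding RefSeq genes (GRCm38.p6) within 50 kb, without a limit to autosomes. Only the members were limited to autosomal genes, so the shares over all peaks carry no such limit. edgeR 4.0.16 (R 4.3.3) fitted all 6 libraries with TMM scaling, filterByExpr (which removed 1476 peaks, 4 of them members) and robust quasi-likelihood F-tests, with Benjamini-Hochberg adjustment over 89347 peaks at 0.05. The fit had 3 residual degrees of freedom, a median of 42.3 prior degrees of freedom and a median biological coefficient of variation of 4.49%. The procedure was run on simulated counts with the same spread for all peaks, no shift of gene-end peaks and no wider PGE2 pair. It therefore could not show how those features affect the calls. Peaks were named by p-value: per comparison, role and direction up to 3 called gene-end peaks, then the 4 leading other peaks, all CLK gene-end peaks, the extremes of openness and leading companion genes; start peaks, the starts assigned to neighbours, distal peaks beyond those 4 and members given as flat or uncalled examples were named after their values were seen. The members and lists were chosen with earlier results of these data known. Alternatives were DESeq2 1.42.0, other scalings, filters, distances, a replicate block and leaving out each library.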

Additional observations from a re-analysis of the deposited data

How the results depend on the processing

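Each group had 2 libraries, and many of the counts moved between settings; the cause was not tested. With DESeq2 the member gene-end peaks called were 15 higher with PGE2, 1 higher with AA and 1 lower in AA than in PGE2. Among other peaks it called 4 higher and 1 lower with AA, and 4 higher and 2 lower with PGE2. There it called 0 higher and 2 lower in AA than in PGE2. Among start peaks it called 18 higher with PGE2, 2 higher with AA and 3 lower in AA than in PGE2. Of all start peaks it called 23.3% higher with PGE2 and 3.15% higher with AA. Requiring a fold of 2 left, at gene ends, 0 with AA, 1 with PGE2 and 0 between them; among other peaks, 2 higher and 1 lower with AA, 3 higher and 0 lower with PGE2, and 0 in either direction between them; and among start peaks, 0 with AA, 3 with PGE2 and 0 between them, with Clk3 among the 3 in both PGE2 counts. With gene-end peaks and all remaining peaks scaled separately, 4 gene-end peaks were higher with AA, where 7.46% of all gene-end peaks were. With PGE2, 4 gene-end and 4 start peaks were lower. In that fit 3 gene-end and 3 start peaks were higher in AA than in PGE2, and 2 gene-end and 7 start peaks lower. Of all gene-end peaks 4.44% were higher there, and of all start peaks 4.21%. Start peaks were not scaled as a class, so their counts mix 35 peaks on the gene-end scaling with 7 on the other. The Hnrnpa1 change with PGE2 turned to -0.16, and the cause was not tested. With gene ends taken by peak edge, 1 gene-end peak was higher in AA than in PGE2, 2 were lower with AA and 1 lower with PGE2, while 4 other peaks were higher with PGE2 and 3 lower in AA than in PGE2; within 2 kb the corresponding counts were 1, 3, 1, 4 and 3. In fits of the 4 libraries compared, 14 gene-end and 16 start peaks were higher with AA, and 4 other peaks lower in AA than in PGE2. Leaving out each library in turn gave 2 to 14 gene-end and 3 to 16 start peaks higher with AA, 17 to 24 gene-end and 18 to 26 start peaks higher with PGE2, and 0 to 1 gene-end peaks lower with PGE2. It gave 3 to 19 gene-end and 6 to 21 start peaks lower in AA than in PGE2, and among other peaks 6 to 12 higher and 3 to 21 lower with AA, 5 to 9 higher and 4 to 9 lower with PGE2, and 1 to 5 higher and 3 to 5 lower in AA than in PGE2. The labels do not say whether library numbers pair the samples. Correlations of deviations over the tested peaks were 0.036, 0.005 and -0.020. They include many weak peaks and so cannot exclude a pairing. The replicate block gave 23 gene-end peaks higher with PGE2 and 10 with AA, moving no count by over 1.5 times. For the 51 peaks named by rule, DESeq2 kept direction and call in 95 single-peak comparisons, and 58 lost a call. With peaks at gene ends and elsewhere scaled separately, 121 were kept, 25 lost a call, 6 gained one and 1 reversed. Most of these peaks were chosen by p-value in the main fit, and a comparison uncalled in both fits counts as kept. These counts are therefore no measure of how steady the calls were. Leaving out the Clk3 start peak, chosen after seeing the data, moved no count by over 1.5 times. Whether depth limited the calls was not tested, and a missed threshold does not show the absence of a change.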
